A study of Mus musculus with 7 samples.

Results

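Bile acid synthesis and uptake was followed through 10 genes, chosen by name from the rows of the liver gene count table. They were the hydroxylases *Cyp7a1*, *Cyp8b1*, *Cyp7b1*, *Cyp39a1* and *Cyp27a1*, the conjugating enzyme *Baat*, and the uptake carriers *Slc10a1*, *Slco1b2*, *Slco1a1* and *Slco1a4*. All 10 had a row among the 23347 genes of the table, and all 10 were among the 15179 genes with enough reads to be tested. The livers came from male mice on a C57BL/6 background that were fed CDAHFD, a choline-deficient and amino acid-defined diet rich in fat, for 15 weeks from an age of 6 to 8 weeks. The 4 control mice were *B4galt1* flox/flox littermates, which GEO labels WT. The 3 other mice, which GEO labels B4galt1-HKO and which are called *B4galt1* hep-/- here, were by the study's methods bred to carry the same floxed alleles together with *Alb-Cre*, a recombinase driven by the albumin promoter and thus directed to hepatocytes. No chow-fed liver was analysed here.

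Bile acids are made from cholesterol in hepatocytes by 2 routes. The classic route begins with CYP7A1, which hydroxylates cholesterol and limits the rate, and CYP8B1 then directs the product towards cholic acid. The alternative route begins with oxysterols. CYP27A1 forms such a sterol by hydroxylating the side chain of cholesterol, and CYP7B1 hydroxylates it further, whereas CYP39A1 prefers the oxysterol that CYP46A1 forms. CYP27A1 also oxidises the side chain in the classic route, before peroxisomal enzymes shorten it. BAAT joins the finished acids to taurine or glycine. Conjugated bile acids that return from the gut in portal blood are taken up again by the sodium-dependent carrier NTCP, the product of *Slc10a1*, and by the sodium-independent carriers of the *Slco1* family.

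Libraries held 37838654 to 39668509 counts in *B4galt1* flox/flox livers and 30608271 to 34586588 in the other group, without overlap. *B4galt1*, the targeted gene, was measured at 48.7, 52.9, 49.2 and 51.6 CPM (counts scaled by TMM to a common library total) in control mice 1 to 4. In hep-/- mice 1 to 3, named so by their label, it was at 28.4, 23.8 and 53.7 CPM. By CPM, hep-/- mouse 3 therefore stood above every control for the targeted gene. By the deposited FPKM, which divides by gene length and all counts, it was at 11.9, just below the controls at 12.2 to 14.0. Hep-/- mice 1 and 2 were at 6.47 and 6.52 FPKM. By either measure hep-/- mouse 3 was near the controls, so its transcript level does not match the label. Counts summed over a whole gene cannot show whether the floxed part was deleted, in this or in the other 2 hep-/- mice. The log2 fold change of *B4galt1* was -0.52 ± 0.26 (SE) and did not pass (adjusted p = 0.181, edgeR), and without hep-/- mouse 3 it was -0.96 and was called (adjusted p = 0.0139, edgeR). Throughout, "hep-/-" means the label, the flox/flox mice are called controls, and counts of calls among the genes described are given without that mouse where they change. Mitochondrially encoded transcripts took 3.88% to 8.0% of counts in *B4galt1* flox/flox livers and 14.4% to 22.6% in livers labelled *B4galt1* hep-/-. With these genes left out of the library sizes, the same 5 of the 10 genes were called, and 2418 in place of 2404 genes over the whole table. Hepatocyte transcripts were abundant in every liver, with 8 markers, among them *Alb*, *Ttr*, *Apoa1* and *Asgr1*, adding up to 78103 CPM or more. The libraries were of the male sex given in the study's methods, since *Xist* stayed at or below 0.301 CPM and 4 Y-linked genes summed to between 92.9 and 131 CPM in all 7 mice.

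Of the 10 genes, 5 were lower in livers labelled *B4galt1* hep-/- and none was higher. The 5 were *Cyp8b1*, *Cyp7b1*, *Slc10a1*, *Slco1b2* and *Slco1a1*, of which *Slco1a1* had few reads and passed the filter on low counts through the controls, and 4 were called when every mouse had to reach 10 counts. A gene was counted as lower or higher where its change exceeded 0.58 on the log2 scale and its adjusted p lay under 0.05, and by that rule 7.83% of all tested genes were lower and 8.0% higher (15.8% in all). The median log2 fold change was -1.12 over the 10 genes and 0.02 over all tested genes. *Cyp7a1*, *Cyp39a1* and *Baat* had log2 fold changes below 0 that did not pass, and *Cyp27a1* and *Slco1a4* had values above 0 that did not pass. The groups did not overlap, with all 3 mice below all 4 controls, for *Cyp8b1*, *Cyp7b1*, *Slc10a1* and *Slco1b2*, as was so for 15.0% of tested genes (13.6% lay above all controls, 28.6% either way). In whole liver, a lower number of hepatocytes and less of a transcript in each hepatocyte cannot be told apart. The 8 hepatocyte markers had a median log2 fold change of 0.36, with 0.29 for *Alb*, 0.43 for *Ttr*, 0.70 for *Apoa1* and -0.11 for *Asgr1*, and none was called in either direction.

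**Figure D1:**
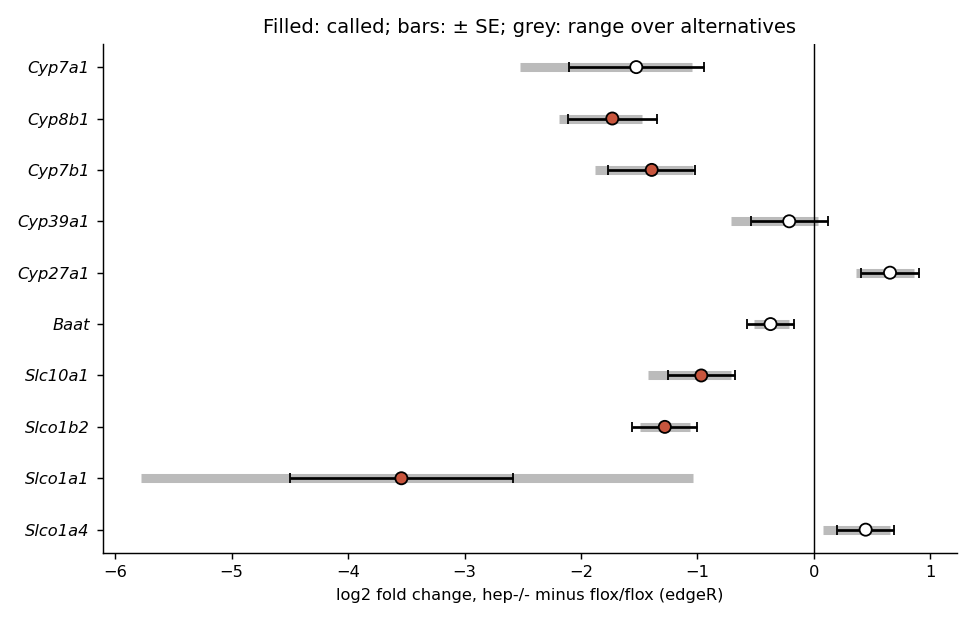
Log2 fold changes of the 10 genes, livers labelled B4galt1 hep-/- minus B4galt1 flox/flox, from edgeR (x axis, log2 units). Points are estimates, filled where called, black bars ± 1 standard error and grey bars the range over the alternative fits. The values run from -3.54 for Slco1a1 to 0.65 for Cyp27a1, and only the grey bar of Cyp39a1 crosses 0.

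The call count depended on individual mice. It was 6 without hep-/- mouse 3, when *Cyp7a1* also passed and 13.8% of all genes tested in that fit were called (7.51% lower and 6.28% higher). It was 2 without hep-/- mouse 2 and 2 without control mouse 4, in fits that called 7.76% and 10.3% of all genes. It was 3 without control mouse 3 and 3 without hep-/- mouse 1, beside 9.36% and 11.7% of all genes. Hep-/- mice 1 and 2 alone lay below every control for 7 of the 10 genes, *Cyp7a1*, *Baat* and *Slco1a1* being added, and for 21.3% of all tested genes. *Cyp8b1* and *Slco1b2* were called in all 7 fits that left out a mouse.

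*Cyp7a1* (NCBI gene 13122) encodes the enzyme that opens the classic route. It was measured at 100, 117, 41.3 and 78.6 CPM in control mice 1 to 4, and at 23.3, 6.18 and 58.4 CPM in hep-/- mice 1 to 3. The groups overlapped, because control mouse 3 lay below hep-/- mouse 3. Group means were 84.3 ± 32.8 CPM (SD, n = 4) and 29.3 ± 26.6 CPM (SD, n = 3). The log2 fold change of -1.53 ± 0.58 (SE) did not pass the threshold (adjusted p = 0.0914, edgeR). By exact permutation over mice (two-sided) p was 0.0857, and 4 against 3 mice cannot give less than 0.0286. Without hep-/- mouse 3 the log2 fold change was -2.52 and the gene was called (adjusted p = 0.0194, edgeR). *Cyp7a1* was called in 4 of 16 alternatives, which also included both fits to log2 FPKM and the looser filter on low counts, and the adjusted p ranged from 0.00887 to 0.191.

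*Cyp8b1* (NCBI gene 13124), the sterol 12α-hydroxylase of cholic acid formation, fell to 30.1% of its control mean. Its levels were 301, 251, 136 and 405 CPM in control mice 1 to 4 and 66.9, 53.5 and 126 CPM in hep-/- mice 1 to 3. The highest of the latter, mouse 3, came close to the lowest control, which was again mouse 3. With means of 273 ± 112 CPM (SD, n = 4) and 82.3 ± 38.8 CPM (SD, n = 3), the log2 fold change was -1.73 ± 0.38 (SE, adjusted p = 0.0145, edgeR), and the exact permutation p, two-sided, was 0.0571. *Cyp8b1* was called in all 16 alternative fits, with log2 fold changes between -2.19 and -1.48.

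The stretch upstream of *Cyp8b1* is shown because *Cyp8b1* was the hydroxylase called in every alternative and because it holds letters recognised by factors known for bile acid genes. The 250 bases before its RefSeq start lie at chr9:121916306-121916555 of GRCm38.p6, on the minus strand, and capitals mark matches to the motifs searched on both strands.
Cyp8b1: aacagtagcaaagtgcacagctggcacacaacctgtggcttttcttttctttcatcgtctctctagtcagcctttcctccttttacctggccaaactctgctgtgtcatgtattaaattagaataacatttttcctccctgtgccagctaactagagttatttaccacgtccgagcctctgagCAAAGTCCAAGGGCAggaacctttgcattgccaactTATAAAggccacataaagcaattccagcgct
The capitals comprise CAAAGTCCA, a form of the HNF4 site, from base 67 to 59 before the start, which shares its last letters with CAAGGNCA, the LRH-1 form, from base 60 to 53, and TATAAA from base 31 to 26. Among 32851 RefSeq promoter windows of 250 bases, 0.384% held CAAAGTCCA, 5.53% held CAAGGNCA and 12.4% held TATAAA. These are matches of letters only, and no binding was measured.

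*Cyp7b1* (NCBI gene 13123), the oxysterol 7α-hydroxylase of the alternative route, was also lower. It was at 22.8, 12.4, 16.4 and 21.9 CPM in control mice 1 to 4 and at 6.88, 3.16 and 10.98 CPM in hep-/- mice 1 to 3. All 3 of these lay below the lowest control, mouse 2. The means were 18.4 ± 4.89 CPM (SD, n = 4) and 7.01 ± 3.91 CPM (SD, n = 3), a log2 fold change of -1.39 ± 0.37 (SE, adjusted p = 0.0288, edgeR), and the exact permutation p, two-sided, was 0.0571. The call was lost without control mouse 4 (adjusted p = 0.0636, edgeR) and without hep-/- mouse 1 (0.0643) or 2 (0.0552), and the adjusted p ranged from 0.00195 to 0.0643 over all alternatives.

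*Cyp39a1* (NCBI gene 56050), the hydroxylase for the CYP46A1 product, was at 32.6, 54.2, 68.4 and 38.6 CPM in control mice 1 to 4 and at 33.4, 26.1 and 66.1 CPM in hep-/- mice 1 to 3. The groups ran through each other. The log2 fold change of -0.21 ± 0.33 (SE, adjusted p = 0.688, edgeR) turned to 0.04 without hep-/- mouse 2.

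*Cyp27a1* (NCBI gene 104086), which serves both routes, was at 213, 170, 190 and 153 CPM in control mice 1 to 4 and at 190, 281 and 386 CPM in hep-/- mice 1 to 3. Hep-/- mice 2 and 3 exceeded every control, and mouse 1 lay among them. The means were 181 ± 25.7 CPM (SD, n = 4) and 286 ± 98.0 CPM (SD, n = 3). Its log2 fold change of 0.65 ± 0.25 (SE, adjusted p = 0.0885, edgeR) was the highest of the 10 genes and did not pass. It was called with DESeq2 (adjusted p = 0.0402) and without hep-/- mouse 1 (adjusted p = 0.0420, edgeR), and the adjusted p went up to 0.324 in the other alternatives.

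**Figure D2:**
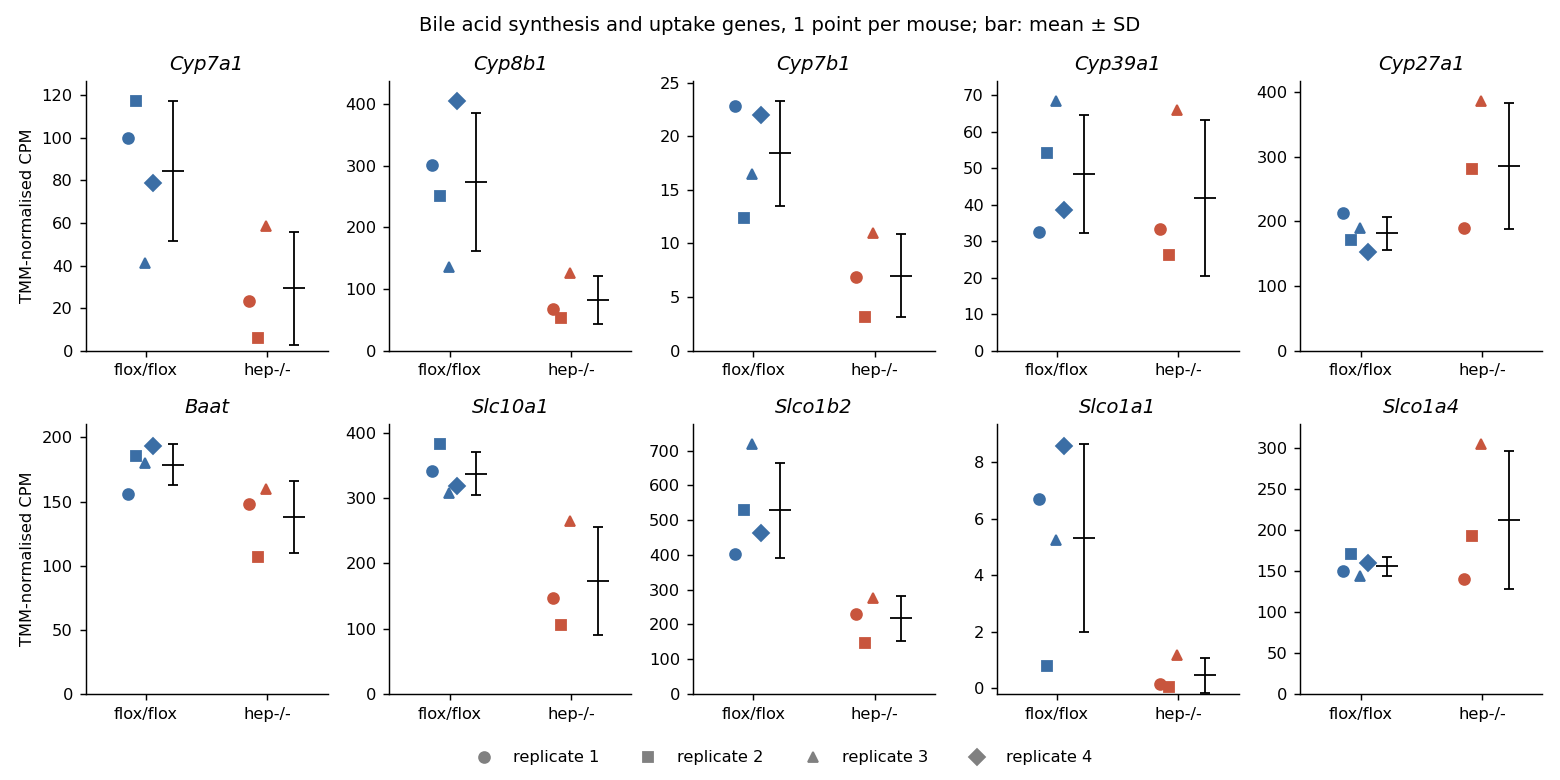
TMM-normalised CPM (y axis, linear) of the 10 genes in each mouse, B4galt1 flox/flox in blue (n = 4) and labelled B4galt1 hep-/- in red (n = 3), with the replicate number as the symbol and the mean ± SD beside the points. Replicate 3 labelled B4galt1 hep-/- (red triangle) is the highest of its group in all 10 panels.

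To compare the classic with the alternative route, the mean log2 CPM of *Cyp7b1* and *Cyp39a1* was subtracted from that of *Cyp7a1* and *Cyp8b1* in each mouse, a difference that does not depend on library scaling. It was 2.67, 2.73, 1.16 and 2.62 in control mice 1 to 4 and 1.38, 1.0 and 1.67 in hep-/- mice 1 to 3. Without control mouse 3, which lay among the other group, the groups would not have overlapped. The group means were 2.29 ± 0.76 (SD, n = 4) and 1.35 ± 0.34 (SD, n = 3), a shift of -0.94 log2 units. No test was made of this score. Log2 fold changes lay below 0 in both routes. They were -1.53 for *Cyp7a1*, -1.73 for *Cyp8b1*, -1.39 for *Cyp7b1* and -0.21 for *Cyp39a1*. The shift in the score was -0.42 for *Cyp7a1* against *Cyp7b1* alone and -1.44 with *Cyp27a1* counted in the alternative route.

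Ratios of FPKM, in which each gene is divided by its length, show where the balance between genes moved. The ratio of *Cyp7a1* to *Cyp7b1*, the 7α-hydroxylases of the 2 routes, ranged from 1.47 to 5.53 in *B4galt1* flox/flox livers and from 1.14 to 3.11 in livers labelled *B4galt1* hep-/-, so it overlapped. For *Cyp8b1* to *Cyp7b1* the ratio also overlapped, at 10.3 to 25.3 in controls and 12.2 to 21.1 in the other group. By contrast, the FPKM ratio of *Cyp27a1* to *Cyp7b1* ranged from 7.08 to 14.0 in controls and from 28.1 to 90.2 in the other group. The FPKM ratio of *Cyp27a1* to *Cyp7a1* likewise ranged from 2.53 to 8.0 against 11.5 to 79.1. *Cyp39a1* to *Cyp7b1* gave 1.12 to 3.43 against 3.81 to 6.47. *Cyp27a1* thus stood higher relative to *Cyp7a1* and *Cyp7b1* in all 3 mice, as a description without a test.

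**Figure D3:**
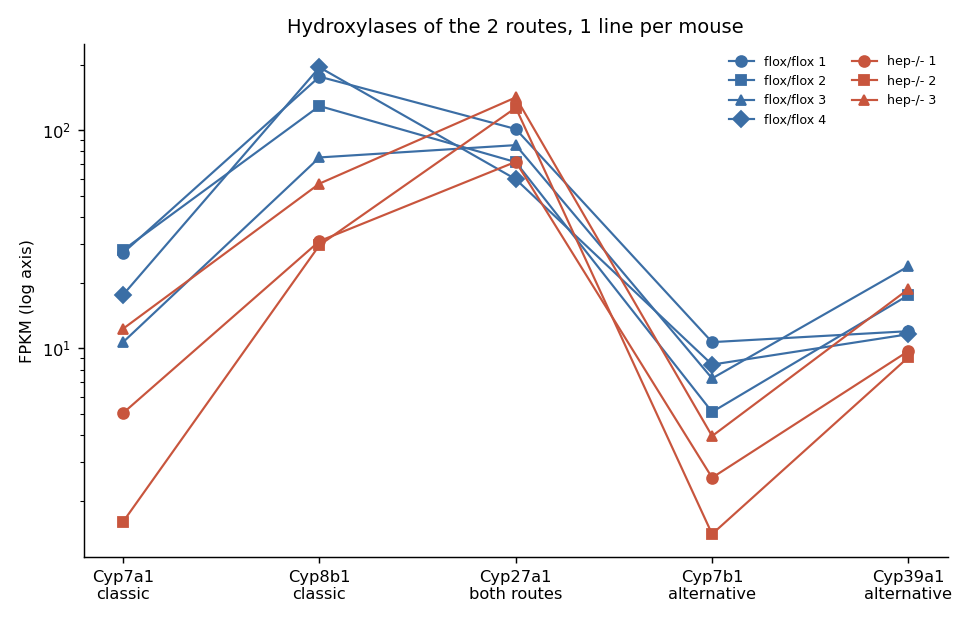
FPKM (y axis, log scale) of the 5 hydroxylases (x axis, with their route) in each mouse, 1 line per mouse, B4galt1 flox/flox blue and labelled B4galt1 hep-/- red. Red lines lie below blue ones at Cyp8b1 and Cyp7b1, and the steepest rise from Cyp7a1 to Cyp27a1, a ratio of 79.1, is in replicate 2 labelled B4galt1 hep-/-.

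*Baat* (NCBI gene 12012), which conjugates bile acids, varied little among controls, at 156, 185, 180 and 193 CPM in control mice 1 to 4. Hep-/- mice 1 to 3 were at 148, 107 and 160 CPM, of which mouse 3 lay above the lowest control. The means of 179 ± 16.1 CPM (SD, n = 4) and 138 ± 27.97 CPM (SD, n = 3) gave a log2 fold change of -0.37 ± 0.20 (SE), which did not pass (adjusted p = 0.221, edgeR). *Slc27a5*, whose product activates bile acids with coenzyme A in the step before BAAT, was called lower (log2 fold change -0.82 ± 0.24, SE, adjusted p = 0.0435, edgeR). It went from 451 ± 29.0 to 256 ± 93.0 CPM (SD, n = 4 and 3) and kept the call in 1 of the 7 fits without a mouse, the one without hep-/- mouse 3.

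The uptake carriers comprised 3 that fell and 1 that did not pass the test in either direction. *Slc10a1* (NCBI gene 20493) was at 342, 383, 307 and 318 CPM in control mice 1 to 4 and at 147, 106 and 265 CPM in hep-/- mice 1 to 3. No mouse of the latter reached the lowest control (p = 0.0286 by exact two-sided permutation, the lowest that can be reached). Its means were 337 ± 33.3 CPM (SD, n = 4) and 173 ± 82.6 CPM (SD, n = 3), a log2 fold change of -0.97 ± 0.29 (SE, adjusted p = 0.0422, edgeR). This call was near the threshold, being lost in the 6 fits that left out a mouse other than hep-/- mouse 3 (adjusted p from 0.0586 to 0.106, edgeR).

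*Slco1b2* (NCBI gene 28253), the main carrier for unconjugated bile acids in mouse liver, had 404, 528, 719 and 464 CPM in control mice 1 to 4. In hep-/- mice 1 to 3 it had 230, 147 and 276 CPM, well below the lowest control. The mean went from 529 ± 137 to 218 ± 65.6 CPM (SD, n = 4 and 3), a log2 fold change of -1.28 ± 0.28 (SE, adjusted p = 0.0133, edgeR, two-sided exact permutation p = 0.0286). All 16 alternative fits called it.

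*Slco1a1* (NCBI gene 28248), a carrier typical of male mouse liver, was scarce. Control mice 1, 3 and 4 had 6.71, 5.25 and 8.59 CPM, whereas control mouse 2 had 0.778 CPM. Hep-/- mice 1 to 3 had 0.162, 0.0301 and 1.18 CPM, which are 5, 1 and 36 reads. The single read of hep-/- mouse 2 allows up to 0.168 CPM (exact Poisson 95% interval, counting error only). Control mouse 2 thus lay below hep-/- mouse 3, and the groups overlapped. The log2 fold change of -3.54 ± 0.96 (SE) was called (adjusted p = 0.0302, edgeR) and ranged from -5.78 to -1.04 over the alternatives, where the value nearest 0 came from log2(FPKM + 1), a scale that compresses low genes. The exact permutation p, two-sided, was 0.0857. The gene passed the filter on low counts through the controls, where it had 292, 31, 224 and 304 reads in mice 1 to 4, and was not tested when at least 10 counts were asked of every mouse, which left 4 called genes. The call was lost without control mouse 3 (adjusted p = 0.0576, edgeR) or 4 (0.0662) and without hep-/- mouse 1 (0.0782) or 2 (0.0610).

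*Slco1a4* (NCBI gene 28250), a carrier with broad substrates, was the exception among the carriers. It was at 150, 170, 144 and 159 CPM in control mice 1 to 4 and at 140, 192 and 304 CPM in hep-/- mice 1 to 3. Hep-/- mouse 1 was the lowest of all 7 mice and hep-/- mouse 3 the highest. The log2 fold change was 0.45 ± 0.25 (SE, adjusted p = 0.233, edgeR). Relative to *Slco1b2*, its FPKM was 0.167 to 0.310 in controls and 0.509 to 1.09 in the other group, without overlap and without a test. *Slco1a5* and *Slco1a6*, relatives of *Slco1a1* and *Slco1a4*, had at most 5 reads in any mouse.

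The carrier promoters are printed because *Slco1b2* and *Slco1a1* were called lower and *Slco1a4*, their neighbour on the chromosome, was not called. RefSeq (GRCm38.p6) gave windows for 6 of the 10 genes. The 250 bases before the start were at chr6:141629268-141629517 (plus strand) for *Slco1b2*, chr6:141946963-141947212 (minus) for *Slco1a1* and chr6:141856221-141856470 (minus) for *Slco1a4*, and the outer start of *Slc10a1* gave chr12:80968706-80968955 (minus). Capitals mark matches on either strand to AGGTCA (the nuclear receptor core), GTTAAT (part of the HNF1 site), TATAAA, CAAAGTCCA and CAAGGNCA.
Slc10a1: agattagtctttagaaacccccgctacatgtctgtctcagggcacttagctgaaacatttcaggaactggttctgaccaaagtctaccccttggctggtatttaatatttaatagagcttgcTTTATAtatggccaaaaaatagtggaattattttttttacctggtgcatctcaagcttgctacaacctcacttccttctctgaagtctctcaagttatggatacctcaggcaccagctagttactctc
Slco1b2: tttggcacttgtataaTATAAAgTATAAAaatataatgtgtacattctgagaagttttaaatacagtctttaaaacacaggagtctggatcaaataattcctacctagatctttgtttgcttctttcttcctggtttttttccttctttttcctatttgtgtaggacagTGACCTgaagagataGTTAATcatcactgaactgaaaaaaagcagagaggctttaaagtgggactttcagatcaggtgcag
Slco1a1: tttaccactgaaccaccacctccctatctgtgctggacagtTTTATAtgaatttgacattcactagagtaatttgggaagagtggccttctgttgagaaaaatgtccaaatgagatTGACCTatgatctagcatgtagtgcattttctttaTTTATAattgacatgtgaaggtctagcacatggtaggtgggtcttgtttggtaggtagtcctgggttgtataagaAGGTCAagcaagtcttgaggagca
Slco1a4: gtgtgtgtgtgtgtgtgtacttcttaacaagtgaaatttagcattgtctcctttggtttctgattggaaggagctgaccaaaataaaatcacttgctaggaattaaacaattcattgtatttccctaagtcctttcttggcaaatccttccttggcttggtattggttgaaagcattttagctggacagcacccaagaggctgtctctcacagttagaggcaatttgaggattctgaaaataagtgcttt
*Slco1a1* had AGGTCA on the printed strand from base 24 to 19 and its complement TGACCT from base 134 to 129 before the start. The other RefSeq start of *Slc10a1*, not printed, had AGGTCA from base 87 to 82. *Slco1b2* had TGACCT from base 81 to 76 and GTTAAT from base 66 to 61. The printed start of *Slc10a1* held only TTTATA, the complement of TATAAA, from base 128 to 123. *Slco1a4* held none of the letters searched, and neither did the window of *Cyp27a1*, which is not printed. Across all windows 14% held AGGTCA and 6.43% held GTTAAT, and the matches describe letters only.

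The genes were also ordered by level, read as mean FPKM. In *B4galt1* flox/flox livers it ran from *Slco1b2* (163 ± 46.2), *Slc10a1* (160 ± 20.1) and *Cyp8b1* (144 ± 53.4) down to *Cyp27a1* (79.5 ± 18.0), with ranges of neighbours that overlapped among these 4. *Baat* (56.0 ± 2.12), *Slco1a4* (40.0 ± 2.75) and *Cyp7a1* (21.0 ± 8.40) followed without overlap. *Cyp7a1* and *Cyp39a1* (16.2 ± 5.72) overlapped, while *Cyp7b1* (7.88 ± 2.32) and *Slco1a1* (1.40 ± 0.841, all SD, n = 4) lay apart below. In livers labelled *B4galt1* hep-/-, *Cyp27a1* had the highest mean at 113 ± 36.8 FPKM, followed by *Slc10a1* (73.0 ± 29.0), *Slco1b2* (60.3 ± 12.5), *Slco1a4* (49.7 ± 17.5), *Baat* (39.3 ± 3.92) and *Cyp8b1* (39.3 ± 15.4, all SD, n = 3). The ranges of each of these and its neighbour overlapped, for example 71.7 to 142 FPKM for *Cyp27a1* and 52.4 to 106 FPKM for *Slc10a1*, so their order is not fixed by these mice. Since FPKM divides by a total that includes mitochondrial reads, orders are compared here and not levels between groups.

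The 3 mice labelled *B4galt1* hep-/- did not respond alike. Hep-/- mouse 3, whose *B4galt1* was near the control level, had the highest CPM of its group for 10 of the 10 genes, against 33.2% of all tested genes. Hep-/- mouse 2 had the lowest for 8 of the 10, against 39.2% of tested genes. Hep-/- mouse 3 was also the highest and hep-/- mouse 2 the lowest of the group for 8 of 8 hepatocyte markers, whose summed level ranged from 78103 to 120167 CPM in controls and from 98731 to 154754 CPM in the other group, with no marker called. Hep-/- mouse 2 also had the highest sum of cholangiocyte markers of all 7 mice, at 873 CPM. Mitochondrially encoded transcripts took 22.6%, 22.1% and 14.4% of counts in hep-/- mice 1 to 3, so mouse 3 was also apart in this share. The part of hepatocyte content, cholangiocyte content or mitochondrial share in the spread between these mice was not tested. As a share of all counts, the 10 genes together made up 0.172% to 0.197% in *B4galt1* flox/flox livers and 0.0891%, 0.0998% and 0.145% in hep-/- mice 1 to 3. These totals include mitochondrial reads, which differed between the groups, so the shares do not compare levels on a like base.

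Among 18 further genes of bile acid synthesis, 2 were lower and 4 were higher, their median log2 fold change being -0.26, and 33.3% of the list was called against 15.8% of all tested genes. Without hep-/- mouse 3 the count was 3 lower and 3 higher, *Amacr* gaining and *Acnat1* losing a call. In that fit 13.8% of all genes were called. The 6 calls fell to 1 without control mouse 2 or 3 or hep-/- mouse 1 or 2, and to 2 without control mouse 4. Over all genes, these fits in that order called 5.9%, 9.36%, 11.7%, 7.76% and 10.3%. Besides *Slc27a5*, the lower gene was *Abcd3*, a peroxisomal importer that also carries bile acid precursors (616 ± 61.8 to 306 ± 155 CPM, SD, n = 4 and 3, adjusted p = 0.0426, edgeR), called in 2 of 7 fits without a mouse. *Acnat2*, an acyltransferase related to BAAT, was higher at 57.4 ± 13.7 CPM (SD, n = 4) against 153 ± 40.1 CPM (SD, n = 3), a log2 fold change of 1.41 ± 0.24 (SE, adjusted p = 0.00600, edgeR). It was called in all 16 alternatives. Its neighbour *Acnat1*, a close copy with which reads may be exchanged, rose by 0.63 on the log2 scale (adjusted p = 0.0401, edgeR) and lost the call whichever mouse was left out.

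*Fdxr*, which passes electrons to mitochondrial P450 enzymes such as CYP27A1, was higher, from 23.1 ± 11.8 to 56.3 ± 17.0 CPM (SD, n = 4 and 3, adjusted p = 0.0365, edgeR), and kept the call in 3 of 7 fits without a mouse. *Cyp46a1*, a cholesterol hydroxylase best known from brain, was scarce at 0.864 ± 0.695 and 3.54 ± 2.69 CPM (SD, n = 4 and 3). It was called higher (adjusted p = 0.0457, edgeR) though its groups overlapped, and in 2 of those 7 fits. *Hsd3b7*, the step after the 7α-hydroxylases, had 222 ± 43.3 and 286 ± 63.9 CPM and did not pass (adjusted p = 0.292, edgeR). *Cyp2c70*, which makes muricholic acids in mice, had 45.9 ± 8.05 and 59.5 ± 36.9 CPM and did not pass either (adjusted p = 0.466, edgeR).

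Of 20 regulators of bile acid genes, 19 were tested, 2 were lower and 2 higher, and the median log2 fold change was 0.28. At 21.1% the share called was near the 15.8% of all tested genes. The bile acid receptor *Nr1h4* (FXR) was at 110 ± 27.6 and 135 ± 20.8 CPM (SD, n = 4 and 3), a log2 fold change of 0.29 that did not pass (adjusted p = 0.397, edgeR). *Nr0b2* (SHP), a repressor that FXR induces, varied widely. It was at 18.3, 4.14, 28.4 and 19.1 CPM in control mice 1 to 4 and at 17.6, 44.2 and 9.60 CPM in hep-/- mice 1 to 3. Its extremes ran opposite to *Cyp7a1* in these mice, with the most *Nr0b2* and the least *Cyp7a1* in hep-/- mouse 2 and the least *Nr0b2* and the most *Cyp7a1* in control mouse 2. The gene did not pass (adjusted p = 0.612, edgeR).

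The lower regulators were *Klb* and *Rxra*. *Klb*, the coreceptor through which the gut hormone FGF15 reaches FGFR4 on hepatocytes, went from 24.9 ± 6.12 to 9.55 ± 4.30 CPM (SD, n = 4 and 3), a log2 fold change of -1.39 ± 0.31 (SE, adjusted p = 0.0145, edgeR). For *Fgfr4* itself the log2 value was 0.11 (adjusted p = 0.815, edgeR). *Rxra*, the partner receptor of FXR and of many other nuclear receptors, went from 325 ± 40.0 to 147 ± 17.6 CPM (SD, n = 4 and 3), a log2 fold change of -1.15 ± 0.20 (SE, adjusted p = 0.00605, edgeR). Both were called in all 16 alternatives.

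The higher regulators were *Nr1i2* and *Cebpb*. *Nr1i2* (PXR), a receptor for drugs and for some bile acids, rose from 94.3 ± 2.85 to 165 ± 22.1 CPM (SD, n = 4 and 3, adjusted p = 0.0132, edgeR). *Cebpb* rose from 162 ± 30.8 to 310 ± 64.4 CPM (SD, n = 4 and 3, adjusted p = 0.0184, edgeR). Each lost its call without control mouse 2, and *Cebpb* also without hep-/- mouse 1 (adjusted p up to 0.0875 for *Nr1i2* and 0.0676 for *Cebpb* over the alternatives, edgeR). *Nr5a2* (LRH-1) and *Hnf4a*, whose motif letters stand before *Cyp8b1*, had log2 fold changes of -0.54 (adjusted p = 0.0902, edgeR) and 0.12 (adjusted p = 0.730).

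Of 20 exporters and other carriers, 16 were tested, and 6 were lower and none higher, with a median log2 fold change of -0.46, so 37.5% of the list was called against 15.8% of all tested genes. Without hep-/- mouse 3 there were 7, *Slc10a5* being added, and the count was 1 without control mouse 2 and 2 without hep-/- mouse 1. Over all genes, these fits in that order called 13.8%, 5.9% and 11.7%. *Abcb11*, the canalicular bile salt export pump, was not among them, at 130 ± 19.9 and 148 ± 19.9 CPM (SD, n = 4 and 3, adjusted p = 0.538, edgeR). *Ephx1*, microsomal epoxide hydrolase, went from 352 ± 37.9 to 193 ± 33.5 CPM (SD, n = 4 and 3, adjusted p = 0.0183, edgeR). The conjugate exporters *Abcc2* of the canalicular side and *Abcc3* of the blood side had log2 fold changes of -0.96 and -0.74 (adjusted p = 0.0226 and 0.0274, edgeR). *Abcg8*, a sterol exporter, had -0.74 (adjusted p = 0.0183, edgeR), while its partner *Abcg5* had 0.17 (adjusted p = 0.543). The prostaglandin carrier *Slco2a1* had -0.74 (adjusted p = 0.0328, edgeR). *Abcc2* and *Abcc3* kept the call in 3 of the 7 fits without a mouse, *Slco2a1* in 2, *Abcg8* in 5 and *Ephx1* in 6, and without control mouse 2 each of these 5 lost it.

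Lists for zonation, sex bias and the daily clock are given as counts, beside 7.83% lower and 8.0% higher among all tested genes. *Cyp7a1* is expressed mainly near the central vein, and of 10 pericentral genes 6 were lower and none higher, with a summed level of 11558 to 13052 CPM in *B4galt1* flox/flox livers and 3138 to 6758 CPM in livers labelled *B4galt1* hep-/-. *Glul*, which marks the innermost pericentral hepatocytes, fell by 1.30 on the log2 scale (adjusted p = 0.0115, edgeR). Without hep-/- mouse 3, 7 of the 10 were lower. None of 9 periportal genes was called, while 1 was lower without hep-/- mouse 3 (sums of 6326 to 9907 CPM and 7031 to 9735 CPM). *Cyp7b1* and *Slco1a1* are more abundant in male than in female mouse liver. Of 11 tested male-biased genes 6 were lower and none higher, and of 9 tested female-biased genes 6 were higher and none lower, with summed levels of 2027 to 4641 against 1073 to 2780 CPM and of 121 to 319 against 447 to 591 CPM. The male-biased sums overlapped between the groups, and without hep-/- mouse 3 the counts were 7 lower and 5 higher, in the fit that called 7.51% of all genes lower and 6.28% higher. *Cyp7a1* also follows the daily clock, and of 12 clock genes *Dbp* and *Nr1d1* were lower and *Per1*, *Per2* and *Bmal1* higher, named after their values were seen. *Nr1d1* lost its call without hep-/- mouse 3, and the list median was near 0. The hour at which livers were taken was not given in the sources used here. The part of zonation, sex-biased expression and clock phase in the values of the 10 genes was not tested.

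**Figure D4:**
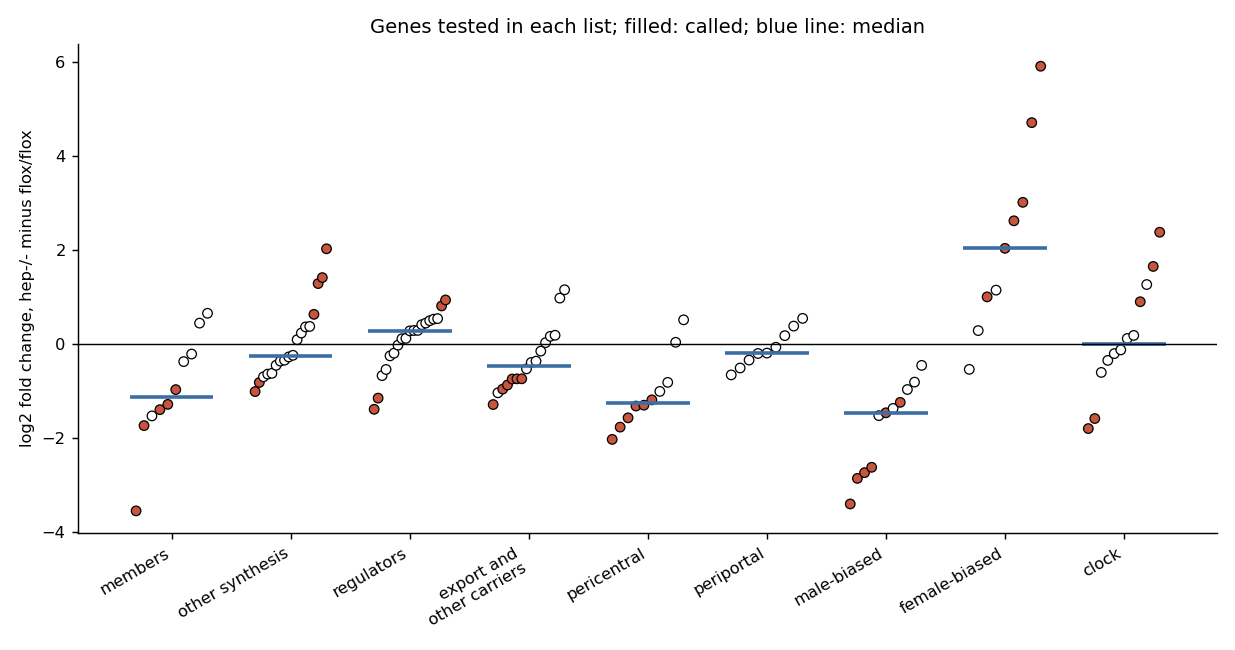
Log2 fold change (y axis, livers labelled B4galt1 hep-/- minus B4galt1 flox/flox, edgeR) of each tested gene in the 10 bile acid genes and in 8 further lists (x axis, the 10 genes under members), filled where called, with the list's median as a blue line. The medians are -1.12 for the 10 genes, -1.24 for pericentral, -1.46 for male-biased and 2.03 for female-biased genes.

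Of other cell types, 7 of 9 macrophage markers were lower, with sums of 1326 to 3148 CPM in controls and 597 to 714 CPM in the other group, beside 7.83% lower among all tested genes. The count was 4 of 9 without hep-/- mouse 3, when *Vsig4*, *Marco* and *Trem2* lost their calls and 7.51% of all genes were called lower. None of 6 cholangiocyte, 7 stellate cell or 7 lymphocyte markers was called. Cholangiocyte markers summed to 255 to 658 CPM and 259 to 873 CPM, stellate cell markers to 323 to 608 and 302 to 659 CPM, and lymphocyte markers to 13.2 to 34.7 and 22.2 to 54.9 CPM. Of 6 endothelial markers *Kdr* was lower (sums of 72.0 to 291 and 104 to 121 CPM), and of 5 erythroid markers *Alas2* was lower and *Hba-a1* higher (sums of 102 to 181 and 70.0 to 245 CPM). The calls of *Kdr* and *Hba-a1* were lost without hep-/- mouse 3. None of 3 tested intestinal markers was called (109 to 206 and 82.1 to 172 CPM), and the kidney markers *Umod* and *Slc22a6* together were at or below 0.0325 CPM. The part of these cells in the values of the 10 genes was not tested.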

How the data were processed

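RNA-seq libraries of 7 mouse livers were compared, 4 *B4galt1* flox/flox and 3 labelled *B4galt1* hep-/-. The authors deposited counts per gene, whole numbers without normalization, and FPKM for the same genes. The submitters' processing notes name fastp, HISAT2, HTSeq, DESeq2 and R 3.2.0 and the build GRCm39, and the annotation is not given in the sources used here. Whether counting used strand or shared reads between copies is not given either, so *Acnat1* and *Acnat2*, and the *Slco1a* genes, may exchange reads.

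In R 4.3.3, edgeR 4.0.16 was used. Its filterByExpr function (minimum count 10, minimum total 15) left 15179 genes, TMM factors scaled the libraries, and the group term was tested by the quasi-likelihood method with Benjamini-Hochberg adjustment over those genes. Standard errors were derived from the F statistic. With this depth, 3 counts equal 0.0689 to 0.0986 CPM. Single genes were also compared by exact permutation over mice. The edgeR fit was tested on simulated data for this comparison, where 85.1% of 195 genes changed by a log2 fold change of 2 were recovered among 14944 genes. Of 177 calls there, 11 were false. Smaller changes, such as those of most of the 10 genes, were not simulated. Alternatives were DESeq2 1.42.0, limma 3.58.1 for FPKM on a log2 scale with a pseudocount of 1 or 0.1, other normalizations and filters, the replicate number as a block, and each mouse left out. FPKM equalled the count per length and per library total in the 13374 genes checked, with a largest deviation of 7.22e-06%. The members and lists were chosen with earlier results of these data known. Named are all 10 genes, every called gene of the 3 pathway lists except 1 that is not reported here, fixed neighbours in the pathway and the genes most like *Cyp7a1* and *Cyp7b1*. Promoter sequences are RefSeq's for GRCm38.p6, and no coordinate of GRCm39 was used.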

Additional observations from a re-analysis of the deposited data

How the results depend on the processing

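Over all genes, 2404 were called, 2427 without a threshold on the fold change and 3271 with DESeq2. Leaving out 1 mouse gave 885 to 2396 calls over all genes, 2 to 6 among the 10 genes, 1 to 6 among other synthesis genes, 2 to 4 among regulators and 1 to 7 among other carriers, with the lowest totals without *B4galt1* flox/flox replicates 2 (885), 3 (1405) and 4 (1552) and without replicate 2 labelled *B4galt1* hep-/- (1199). The log2 fold change of *Cyp39a1* ranged from -0.71 to 0.0368 in these fits and was the only one among the 10 genes to change sign in any alternative. With limma on FPKM, 24.5% or 23.1% of calls were higher, against 50.5% with TMM, and the median log2 fold change of all genes was -0.14 or -0.18 in place of 0.02, and none of the 10 genes changed sign there. The replicate numbers do not pair the mice, which are different animals, and deviations of same-numbered mice correlated at -0.42, -0.10 and 0.09. The replicate block on replicates 1 to 3 gave 1225 calls over all genes, 4 of the 10 genes (*Slc10a1* lost), 2 other synthesis genes, 3 regulators and 3 other carriers. Of 175 alternative log2 fold changes of the 10 genes and *B4galt1*, 151 kept their side of the threshold and their direction, 14 lost a call, 8 gained 1 and 2 changed sign. With 4 and 3 mice, an exact permutation p cannot go below 0.0286.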

Other observations

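Over the 7 mice, the genes whose log2 CPM ran closest to *Cyp7a1*, among 7486 candidates at or above the median level, were *Anks4b* (Pearson r = 0.99), *Alas1* (r = 0.98), the enzyme that begins haem synthesis, and *Slc25a39* (r = 0.98), a mitochondrial glutathione carrier. None of the 3 was called between the groups (adjusted p = 0.0654, 0.0585 and 0.142, edgeR). Closest to *Cyp7b1* were *Fbl* (r = 0.98), *Oat* (r = 0.98), a pericentral gene with a log2 fold change of -1.76 (adjusted p = 0.00943, edgeR), and *Igfbp4* (r = 0.98). The mice differ by group, library size and mitochondrial share, so these correlations are a description of the 7 livers with no test.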
